A study of Homo sapiens with 15 samples.

Results

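The genes described here are 36 aminoacyl-tRNA synthetase genes, 20 that encode the cytosolic enzymes and 16 that encode mitochondrial ones, of 19604 genes in the deposited tables. They were chosen by gene symbol, with a final 2 marking the mitochondrial forms. All 36 passed the filter on low values, a mean of at least 1 FPKM (a read level divided by transcript length and by library size), so each was tested in every comparison. Tests used limma on log2(FPKM + 1), two-sided, with Benjamini-Hochberg adjustment over all genes tested and a threshold of adjusted p = 0.05; log2 changes are on that scale, with their standard error (SE), and "rose" or "fell" is written of what passed. The p-values measure the spread between libraries, part of which may be technical. RNA was sequenced from OCI-AML5, a line of human acute myeloid leukaemia that the series describes as mutant for RUNX1, a transcription factor of blood cells. The 15 libraries form 5 groups of 3. ARV-825 cells received 1000 nM for 4 h of a compound that joins the BET inhibitor OTX015 to a ligand of the ubiquitin ligase adaptor cereblon, so that BET proteins, readers of acetylated histones, are degraded. OTX015 cells received 1000 nM of the inhibitor itself for 4 h. Control cells of the 4 h experiment were untreated, and a vehicle is not stated. A separate experiment compared cells carrying an shRNA against RUNX1 with cells carrying a non-targeting shRNA, each exposed for 72 h. The medium of every culture was Alpha MEM, to which FBS (20%) and GM-CSF (10 ng/mL) were added, and all came from this 1 line.

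Aminoacyl-tRNA synthetases attach each amino acid to its own tRNA, the step that sets the genetic code and supplies the ribosome. Nuclear genes encode both a cytosolic set and a mitochondrial set, and GARS (glycine) and KARS (lysine) serve both compartments from a single gene. In the cytosol several of the enzymes are held with the scaffold proteins AIMP1, AIMP2 and EEF1E1 in the multisynthetase complex. When amino acids run short, uncharged tRNA activates the kinase GCN2 (EIF2AK4), translation of the transcription factor ATF4 increases, and ATF4 raises many cytosolic synthetase genes along with amino acid transporters and biosynthetic enzymes. MYC, whose transcription in leukaemia cells often depends on BET proteins, also supports genes of protein synthesis through DNA elements called E-boxes.

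Facts of the whole series were as follows. RUNX1 measured 37.2, 42.9 and 36.03 FPKM with RUNX1 shRNA, against 69.8, 72.2 and 69.8 FPKM with non-targeting shRNA, a log2 change of -0.85 ± 0.059 (SE, adjusted p = 3.71e-05); the sample titles of the RUNX1 shRNA libraries name Runx3, and the groups follow the treatment labels. MYC changed by -3.59 with ARV-825 and -1.34 with OTX015 on the log2 scale, and HEXIM1, a gene used as a readout of BET inhibition, by 2.05 and 2.92, each against control. The libraries' FPKM sums ran from 554570 to 656995. ARV-825 replicate 1 stood apart in that 6 of the 13 genes of the mitochondrial genome had a value of 0 there, against 0 genes in each other library; no synthetase gene was at 0, the lowest being PARS2 at 1.79 FPKM. Of 6 myeloid markers, all averaged 1 FPKM or above over each table. Their summed level was 162 to 179 FPKM with ARV-825, 159 to 175 with OTX015 and 349 to 398 in control. It was 393 to 408 FPKM with RUNX1 shRNA and 346 to 359 with non-targeting shRNA. These sums do not describe each marker. With ARV-825 SPI1, PTPRC, CD33 and CD34 fell, MPO rose by 0.25 on the log2 scale (adjusted p = 0.0367) and CSF2RA did not pass. With OTX015 all but CSF2RA fell. With RUNX1 shRNA mean SPI1 (143 against 159 FPKM), MPO and CSF2RA were lower than with non-targeting shRNA. Mean PTPRC (151.5 against 111.5 FPKM), CD33 and CD34 were higher. Among T and NK cell markers NKG7 was the 1 of 4 at 1 FPKM or above, with a summed level of 46.4 to 48.1 FPKM with ARV-825, 31.6 to 32.6 with OTX015 and 32.9 to 35.1 in control, while CD2 was at 0 in all 9. Erythroid, epithelial and fibroblast markers were all under 1 FPKM, CD79A was the 1 of 3 B cell markers above it, and ITGA2B the 1 of 3 megakaryocyte markers, with PF4 and GP9 at 0. The part of these markers in the results below was not tested.

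In control cells the cytosolic genes were the more abundant set. FPKM is scaled to transcript length, so levels can be set side by side. Mean levels of the 20 cytosolic genes in control ran from 23.7 FPKM (FARSB) to 132 FPKM (FARSA), with a median of 71.8 FPKM, and those of the 16 mitochondrial genes from 2.62 FPKM (PARS2, proline) to 55.1 FPKM (IARS2, isoleucine), with a median of 9.42 FPKM. For the 13 pairs of genes whose symbols differ only by a final 2, the cytosolic gene was the higher in control in all 13. The difference ran from 1.1 times for CARS over CARS2 (cysteine) up to 18.2 times for LARS over LARS2 (leucine). Mean CARS2 was above mean CARS with ARV-825 (31.7 against 20.7 FPKM), non-targeting shRNA (24.9 against 21.5) and RUNX1 shRNA (24.8 against 21.8). Phenylalanine, glutamate and proline, whose genes in the 2 sets are named otherwise, are not among the 13. The top of the control order, FARSA, NARS, QARS, TARS, LARS and KARS, could not be ranked, since each overlapped the next over its 3 libraries, while KARS stood clear of EPRS below it. With ARV-825 QARS stood first at 150.2 ± 5.70 FPKM and KARS next at 103 ± 4.84 (SD, n = 3 each), each clear of the gene below it. EPRS, NARS and LARS followed at 83.6 ± 2.25, 83.6 ± 1.82 and 81.5 ± 5.03 FPKM, each overlapping the next, and FARSA at 55.7 ± 0.819 FPKM overlapped IARS2 at 56.9 ± 1.05 FPKM. PARS2 was the lowest of the 36 in each of the 5 groups.

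**Figure D1:**
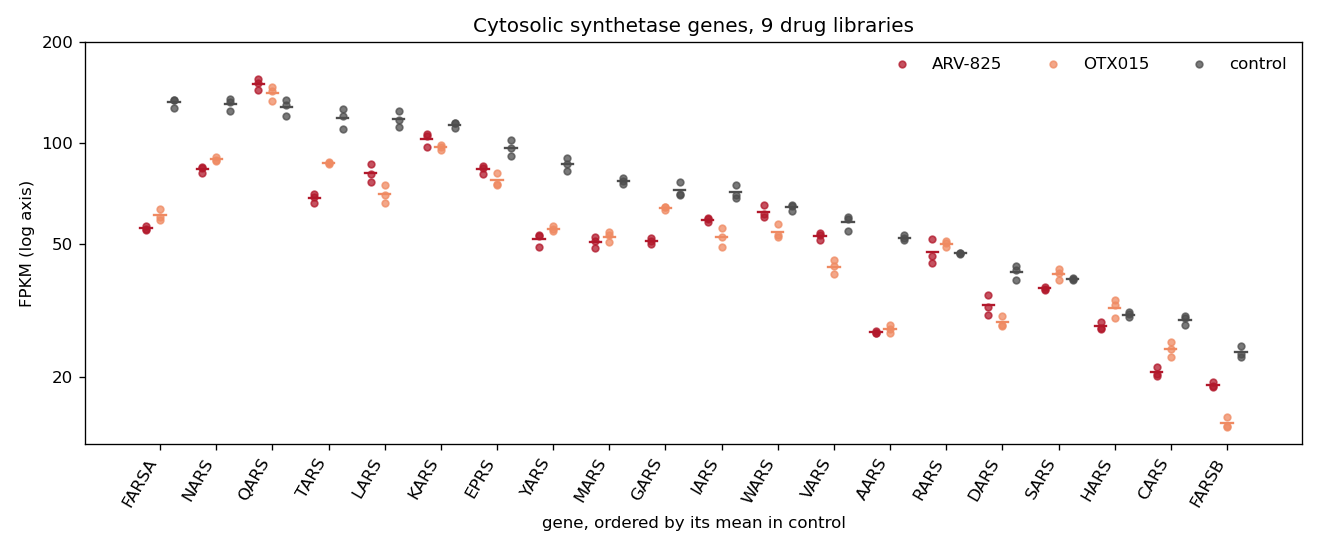
Level of each of the 20 cytosolic synthetase genes in FPKM (log axis) in 3 ARV-825, 3 OTX015 and 3 control libraries; points are libraries and short bars are group means, with genes ordered by their control mean. FARSA, AARS and YARS lie lower in both drug groups than in control, QARS lies higher with ARV-825, and RARS and SARS show small differences.

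Summed over the 20 cytosolic genes, the level was 1157.8 to 1180.4 FPKM per library with ARV-825, 1152 to 1174 with OTX015 and 1515 to 1547 in control. The sum over the 16 mitochondrial genes was 199 to 206 FPKM with ARV-825, 184 to 202 with OTX015 and 230 to 234 in control. Neither drug group overlapped control in either sum, which is given as a description only. In bulk RNA fewer cells of a kind and less RNA of a gene per cell cannot be told apart. The values were read as quantile normalized, so levels, rises and falls are relative to the other genes of a library. A change in the total RNA of a cell would not show in them.

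The promoters are shown because several genes of the cytosolic set share a short element there. RefSeq windows on GRCh38.p14, from 250 bases before to 50 after the annotated start, were found for 30 of the 36 genes (16 cytosolic and 14 mitochondrial); DARS, LARS, VARS, YARS, AARS2 and VARS2 had none. The letters TGATGCAA, the core of the element bound by C/EBP and ATF proteins including ATF4, were searched on both strands. They stood in the windows of 6 of the 16 cytosolic genes (37.5%) and 0 of the 14 mitochondrial genes, against 304 of 35116 RefSeq windows (0.866%) and 295 of 27305 genes (1.08%). The 6 stretches are given on the gene's own strand, 5′ to 3′, with the element in capitals.
AARS at chr16:70289675-70289704 (- strand): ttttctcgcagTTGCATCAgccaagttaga
CARS at chr11:3057407-3057436 (- strand): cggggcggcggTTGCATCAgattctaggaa
IARS at chr9:92293692-92293721 (- strand): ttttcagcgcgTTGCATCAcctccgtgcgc
MARS at chr12:57488053-57488082 (+ strand): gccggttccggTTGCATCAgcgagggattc
NARS at chr18:57621804-57621833 (- strand): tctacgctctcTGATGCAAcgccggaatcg
TARS at chr5:33440956-33440985 (+ strand): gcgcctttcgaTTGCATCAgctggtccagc
In NARS the letters read TGATGCAA on the gene's strand and in the other 5 TTGCATCA, its reverse complement. The first base of the element lay 187 bases before an annotated start in AARS (alanine), 2, 13 and 4 bases before it in CARS, IARS and MARS (methionine), and at base 3 and base 15 of the transcript in TARS (threonine) and NARS (asparagine).

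The E-box CACGTG, which reads the same on both strands, stood in the windows of 1 of the 16 cytosolic genes (IARS) and 3 of the 14 mitochondrial genes, against 7.26% of all windows and 8.77% of all genes. The 3 mitochondrial stretches follow, with the E-box in capitals.
CARS2 at chr13:110706501-110706530 (- strand): tgctgggatgcaCACGTGcttcgctaacag
EARS2 at chr16:23557348-23557377 (- strand): cagggagaagccCACGTGtgctattccatc
MARS2 at chr2:197705346-197705375 (+ strand): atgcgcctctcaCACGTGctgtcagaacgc
The first base of the E-box lay 3 bases before 1 of 2 annotated starts in CARS2, whose other window held none, 15 before 1 of the annotated starts in EARS2 (glutamate) and 11 before the start in MARS2. A match of letters is a description of the sequence, and binding was not measured.

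Most synthetase genes were lower after 4 h of ARV-825. Of the 20 cytosolic genes 15 fell, 1 rose and 4 did not pass the test, with a median log2 change of -0.32; of the 16 mitochondrial genes 10 fell, 2 rose and 4 did not pass, with a median of -0.28. Over all 10819 genes tested, 74.2% passed, 38.4% as falls and 35.8% as rises, with a median of -0.01, so the shares of falls among the synthetase genes, 75% of the cytosolic and 62.5% of the mitochondrial, are to be read against 38.4%. The 3 libraries of each group did not overlap for 17 cytosolic genes lower and 1 higher and for 9 mitochondrial genes lower and 3 higher with ARV-825, against 39.3% of all genes lower and 36.8% higher; 2 of the 36 genes, FARSA and YARS2, fell by a log2 change of 1 or more, as 8.16% of all genes did. The 1 FPKM added before taking logs understates changes of low genes: mean MARS2 and AARS2 were 0.46 and 0.47 of control in FPKM. The largest falls were in the phenylalanine, alanine, threonine and tyrosine enzymes of the cytosol and in the tyrosine, methionine, alanine and leucine enzymes of mitochondria.

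FARSA, the catalytic subunit of the cytosolic phenylalanine enzyme, had 56.6, 55.3 and 55.2 FPKM with ARV-825, against 134, 128 and 135 FPKM in control, a log2 change of -1.23 ± 0.042 (SE, adjusted p = 2.15e-09). AARS, which charges alanine, had 27.5, 27.2 and 27.1 FPKM with ARV-825, against 52.3, 53.2 and 51.2 FPKM in control, a log2 change of -0.91 ± 0.039 (SE, adjusted p = 9.15e-09). TARS, which charges threonine, had 66.4, 68.8 and 70.7 FPKM with ARV-825, against 127, 121 and 110.3 FPKM in control, a log2 change of -0.79 ± 0.051 (SE, adjusted p = 1.61e-07). In these 3 genes every ARV-825 library lay far below every control library. YARS, which charges tyrosine, had 52.96, 48.95 and 53.01 FPKM with ARV-825, against 90.2, 86.7 and 82.7 FPKM in control, a log2 change of -0.73 ± 0.046 (SE, adjusted p = 1.39e-07), again without overlap. The other subunit of the phenylalanine enzyme, FARSB, fell less, by 0.31 on the log2 scale (adjusted p = 0.000188). QARS, which charges glutamine and was the most abundant of the genes under ARV-825, was the 1 cytosolic gene that rose, at 155, 152 and 144 FPKM with ARV-825, against 121, 134 and 129.9 FPKM in control, a log2 change of 0.23 ± 0.053 (SE, adjusted p = 0.00277); its groups did not overlap.

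Over all genes 38.4% fell with ARV-825 and 35.8% rose. Of the 8 enzymes of the multisynthetase complex, 6 fell, 1 (QARS) rose and 1 did not pass, with a median of -0.24. Among them MARS fell by 0.60, LARS by 0.53, DARS (aspartate) by 0.32, IARS by 0.27, EPRS (glutamate and proline) by 0.21 and KARS by 0.14 on the log2 scale, while RARS (arginine) had 0.01 (95% interval -0.11 to 0.13). All 3 scaffold genes fell, EEF1E1 by 0.90, AIMP1 by 0.39 and AIMP2 by 0.17. Of the 12 cytosolic genes outside the complex, 9 fell and 0 rose, with a median of -0.50. NARS fell by 0.64, CARS by 0.50, GARS by 0.49 and VARS (valine) by 0.13 on the log2 scale; HARS (histidine) had -0.11, SARS (serine) -0.09 and WARS (tryptophan) -0.04, none of them past the test. VARS rested on single libraries: it did not pass without ARV-825 replicate 1 (-0.13, adjusted p = 0.0716) or replicate 3 (-0.11, adjusted p = 0.104), nor without control replicate 2 (-0.10, adjusted p = 0.13) or replicate 3 (-0.11, adjusted p = 0.115). Nor did it pass with all libraries after median-ratio rescaling, in which each library is divided by its median ratio, over genes, to the geometric mean of all libraries (-0.08, adjusted p = 0.206). In GENCODE release 29, 20 of the 36 genes have an exon that overlaps an exon of another gene, 11 of them a protein-coding one (HARS and HARS2 with each other, MARS with DDIT3, and also KARS, WARS, YARS, AARS2, CARS2, EARS2, SARS2 and VARS2). Strand is not stated for the libraries, and HARS2, SARS2 and VARS2 overlap a protein-coding gene on their own strand. Reads in the shared exons therefore cannot be assigned to either gene.

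**Figure D2:**
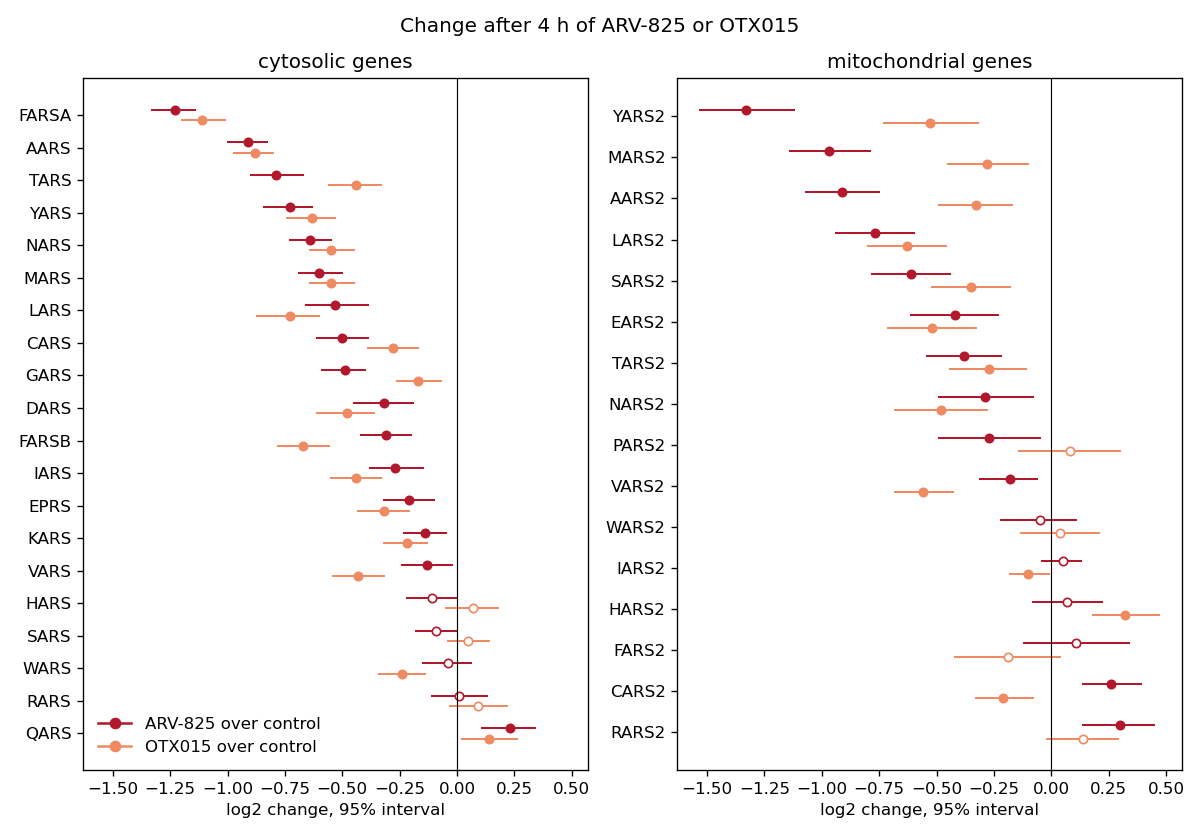
Log2 change of each synthetase gene with ARV-825 over control and with OTX015 over control, with 95% intervals, cytosolic genes on the left and mitochondrial genes on the right; filled points passed adjusted p = 0.05 and open points did not. Most points lie left of 0 for both drugs, FARSA lies beyond -1 for both, YARS2 beyond -1 for ARV-825 alone among the plotted changes, and the points of CARS2 lie on opposite sides of 0. Both sets of changes use the same 3 control libraries.

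In mitochondria, YARS2, which charges tyrosine, had 6.71, 7.67 and 6.16 FPKM with ARV-825, against 18.6, 19.6 and 17.8 FPKM in control, a log2 change of -1.33 ± 0.094 (SE, adjusted p = 3.19e-07). MARS2, which charges the methionine used for initiation and elongation there, had 4.58, 3.98 and 4.92 FPKM with ARV-825, against 10.5, 9.29 and 9.34 FPKM in control, a log2 change of -0.97 ± 0.079 (SE, adjusted p = 9.95e-07). AARS2, for alanine, had 3.34, 3.96 and 3.32 FPKM with ARV-825, against 7.48, 7.74 and 7.27 FPKM in control, a log2 change of -0.91 ± 0.072 (SE, adjusted p = 8.33e-07). In all 3 the highest ARV-825 library stayed well below the lowest control library. LARS2, for leucine, had 3.38, 3.07 and 3.72 FPKM with ARV-825, against 6.15, 6.30 and 6.96 FPKM in control, a log2 change of -0.77 ± 0.077 (SE, adjusted p = 4.89e-06). SARS2 fell by 0.61, EARS2 by 0.42, TARS2 by 0.38, NARS2 by 0.29, PARS2 by 0.27 and VARS2 by 0.18 on the log2 scale. NARS2 did not pass without ARV-825 replicate 1 (-0.23, adjusted p = 0.0606) or control replicate 3 (-0.26, adjusted p = 0.0552), and PARS2, the least abundant, did not pass without ARV-825 replicate 1 (-0.21, adjusted p = 0.105), ARV-825 replicate 2 (-0.22, adjusted p = 0.0948), control replicate 2 (-0.23, adjusted p = 0.106) or control replicate 3 (-0.26, adjusted p = 0.0775). VARS2 did not pass under median-ratio rescaling (-0.14, adjusted p = 0.056).

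The mitochondrial genes that rose with ARV-825 were RARS2 and CARS2. RARS2, for arginine, had 11.2, 12 and 11.2 FPKM with ARV-825, against 8.87, 8.85 and 9.66 FPKM in control, a log2 change of 0.30 ± 0.07 (SE, adjusted p = 0.00259). CARS2, for cysteine, had 30.6, 32.03 and 32.5 FPKM with ARV-825, against 26.4, 26.98 and 25.4 FPKM in control, a log2 change of 0.26 ± 0.056 (SE, adjusted p = 0.00137). Neither gene's groups overlapped. FARS2, HARS2, IARS2 and WARS2 ranged from -0.05 to 0.11 and did not pass; under median-ratio rescaling IARS2 passed as a rise (0.09, adjusted p = 0.0295). Of the 13 pairs whose symbols differ only by a final 2, both genes fell in 7 (alanine, leucine, methionine, asparagine, threonine, valine and tyrosine). The cytosolic gene fell without the mitochondrial one in 2 (cysteine and isoleucine), and the mitochondrial one without the cytosolic one in 1 (serine). Neither fell in 3 (histidine, arginine and tryptophan). Outside these 13, EPRS, EARS2 and PARS2 (glutamate and proline) all fell. For phenylalanine FARSA and FARSB fell and FARS2 did not pass. Of all genes, taken singly, 38.4% fell with ARV-825.

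**Figure D3:**
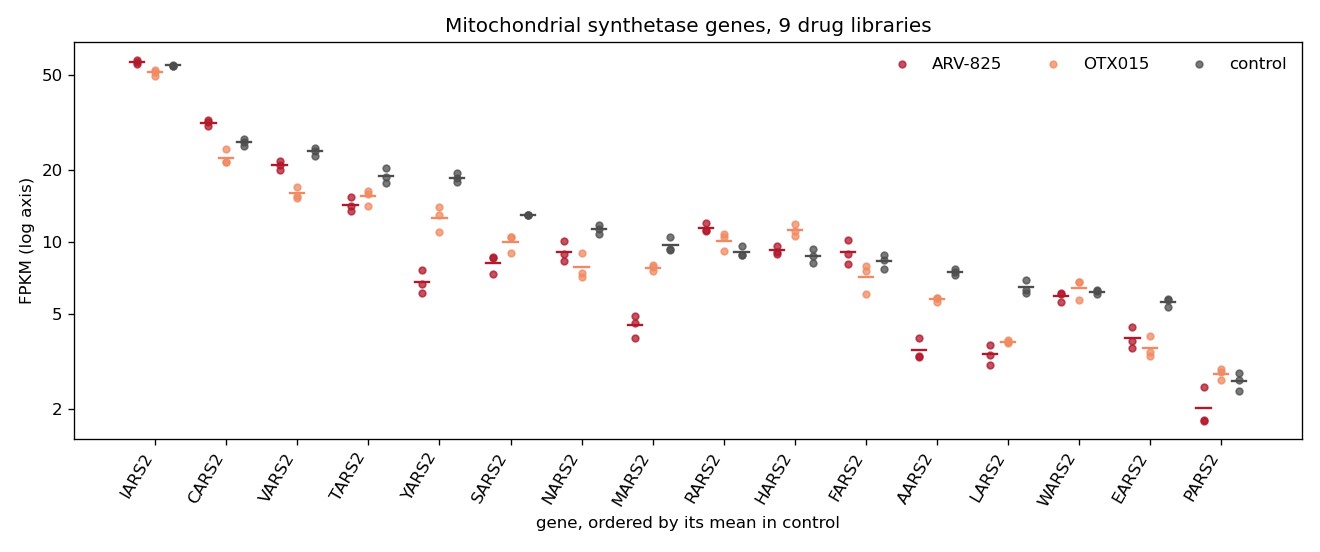
Level of each of the 16 mitochondrial synthetase genes in FPKM (log axis) in 3 ARV-825, 3 OTX015 and 3 control libraries; points are libraries and short bars are group means, with genes ordered by their control mean. YARS2, MARS2 and AARS2 are lowest with ARV-825 and lie between with OTX015, and CARS2 is highest with ARV-825 and lowest with OTX015.

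Most of the genes also fell with OTX015. Of the 20 cytosolic genes 16 fell, 1 rose and 3 did not pass (median -0.44), and of the 16 mitochondrial genes 11 fell, 1 rose and 4 did not pass (median -0.27). The background was 69.6% of 10819 genes called, 33.5% as falls and 36.1% as rises, with a median of 0.03; 80% of the cytosolic and 68.8% of the mitochondrial genes fell. The groups did not overlap for 16 cytosolic and 11 mitochondrial genes lower and for RARS, which did not pass the test, and HARS2 higher, against 36.1% of all genes lower and 39.3% higher, and FARSA was the 1 gene of the 36 that fell by a log2 change of 1 or more, against 4.96% of all genes. The control libraries are those of the ARV-825 comparison, so the 2 sets of changes are not independent.

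FARSA had 60.2, 63.8 and 58.8 FPKM with OTX015, against 134, 128 and 135 FPKM in control, a log2 change of -1.11 ± 0.042 (SE, adjusted p = 5.77e-09). AARS had 28.6, 27.9 and 27.02 FPKM with OTX015, against 52.3, 53.2 and 51.2 FPKM in control, a log2 change of -0.88 ± 0.039 (SE, adjusted p = 1.74e-08). LARS, for leucine, had 66.3, 69.98 and 75.2 FPKM with OTX015, against 124, 111 and 117 FPKM in control, a log2 change of -0.73 ± 0.062 (SE, adjusted p = 1.81e-06). FARSB, the partner subunit of FARSA, had 14.3, 15.2 and 14.2 FPKM with OTX015, against 23.5, 22.9 and 24.8 FPKM in control, a log2 change of -0.67 ± 0.05 (SE, adjusted p = 7.14e-07), and in none of these 4 genes did the groups overlap. YARS fell by 0.63, MARS and NARS by 0.55 each, DARS by 0.48, IARS and TARS by 0.44 each, VARS by 0.43, EPRS by 0.32, CARS by 0.28, WARS by 0.24, KARS by 0.22 and GARS by 0.17 on the log2 scale. HARS, RARS and SARS had 0.07, 0.09 and 0.05 and did not pass. QARS had 144, 147 and 134 FPKM with OTX015, against 121, 134 and 129.9 FPKM in control, a log2 change of 0.14 ± 0.053 (SE, adjusted p = 0.0371), a rise close to the threshold in groups that overlapped: it did not pass without OTX015 replicate 1 (0.13, adjusted p = 0.1) or 2 (0.11, adjusted p = 0.13), or without control replicate 1 (0.10, adjusted p = 0.139) or 3 (0.15, adjusted p = 0.0637). The complex enzymes had 6 falls and 1 rise of 8 (median -0.38). The enzymes outside the complex had 10 falls and 0 rises of 12 (median -0.44). EEF1E1, AIMP1 and AIMP2 fell by 0.79, 0.39 and 0.21. The shares of all genes were 33.5% as falls and 36.1% as rises.

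Among mitochondrial genes LARS2 had 3.83, 3.88 and 3.77 FPKM with OTX015, against 6.15, 6.30 and 6.96 FPKM in control, a log2 change of -0.63 ± 0.077 (SE, adjusted p = 3.12e-05). VARS2, for valine, had 17.1, 15.4 and 15.6 FPKM with OTX015, against 24.8, 23.1 and 24.2 FPKM in control, a log2 change of -0.56 ± 0.056 (SE, adjusted p = 6.96e-06). YARS2 had 12.99, 14.1 and 10.99 FPKM with OTX015, against 18.6, 19.6 and 17.8 FPKM in control, a log2 change of -0.53 ± 0.094 (SE, adjusted p = 0.000469). Each of these lay below control in every OTX015 library. EARS2, which charges glutamate and also supplies the precursor of mitochondrial glutaminyl-tRNA, had 3.34, 4.04 and 3.46 FPKM with OTX015, against 5.38, 5.76 and 5.73 FPKM in control, a log2 change of -0.52 ± 0.086 (SE, adjusted p = 0.000265). NARS2 fell by 0.48, SARS2 by 0.35, AARS2 by 0.33, MARS2 by 0.28, TARS2 by 0.27, CARS2 by 0.21 and IARS2 by 0.10 on the log2 scale. IARS2 kept its call without OTX015 replicate 1 and lost it when any of the other 5 libraries of the comparison was left out, with adjusted p = 0.0739 (without control replicate 2) to 0.13 (without OTX015 replicate 3). HARS2, for histidine, was the 1 that rose, at 11.9, 10.6 and 11.2 FPKM with OTX015, against 9.36, 8.21 and 8.77 FPKM in control, a log2 change of 0.32 ± 0.067 (SE, adjusted p = 0.00128). FARS2, PARS2, RARS2 and WARS2 ranged from -0.19 to 0.14 and did not pass. Without OTX015 replicate 3, RARS2 (0.20, adjusted p = 0.0217) and the cytosolic HARS (0.12, adjusted p = 0.0429) passed as rises.

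ARV-825 and OTX015 differ in that ARV-825 carries the cereblon ligand and linker in addition to the OTX015 moiety, and this 1 pair of compounds was compared directly at 1000 nM and 4 h. Of the 20 cytosolic genes 6 were higher with ARV-825, 6 were lower and 8 did not pass (median -0.04), and of the 16 mitochondrial genes 4 were higher, 6 were lower and 6 did not pass (median -0.10). Over all tested genes 58.1% passed, 24.7% higher and 33.4% lower with ARV-825 (median -0.04). The counts among synthetase genes, 30% and 25% higher and 30% and 37.5% lower for the cytosolic and mitochondrial sets, lay near that background. These splits moved with the scaling: under median-ratio rescaling 9 cytosolic genes were higher and 4 lower with ARV-825, and 6 mitochondrial genes were higher and 6 lower, while the higher genes made up 50.8% of all calls, against 42.5% without it. EPRS, KARS, QARS, NARS2 and RARS2 then passed as higher, and FARSA and SARS did not pass. The 2 drug groups did not overlap for 6 cytosolic and 5 mitochondrial genes higher and 8 and 7 lower with ARV-825, against 26.8% and 35.2% of all genes. The largest differences were in mitochondrial genes.

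YARS2 had 6.71, 7.67 and 6.16 FPKM with ARV-825 and 12.99, 14.1 and 10.99 FPKM with OTX015, a log2 difference of -0.80 ± 0.094 (SE, adjusted p = 5.01e-05). MARS2 had 4.58, 3.98 and 4.92 FPKM with ARV-825 and 7.88, 8.02 and 7.61 FPKM with OTX015, a log2 difference of -0.69 ± 0.079 (SE, adjusted p = 4.39e-05). AARS2 had 3.34, 3.96 and 3.32 FPKM with ARV-825 and 5.83, 5.83 and 5.64 FPKM with OTX015, a log2 difference of -0.58 ± 0.072 (SE, adjusted p = 7.81e-05). The 2 drug groups did not overlap in any of the 3. PARS2 had 1.79, 1.80 and 2.48 FPKM with ARV-825 and 2.85, 2.94 and 2.64 FPKM with OTX015, a log2 difference of -0.34 ± 0.099 (SE, adjusted p = 0.0126), without overlap at these low levels. SARS2 and HARS2 were lower with ARV-825 by 0.26 and 0.25; SARS2 did not pass without OTX015 replicate 1 (-0.22, adjusted p = 0.0556) or 2 (-0.23, adjusted p = 0.0528). CARS2 was higher with ARV-825, at 30.6, 32.03 and 32.5 FPKM with ARV-825 and 21.6, 24.6 and 21.8 FPKM with OTX015, a log2 difference of 0.47 ± 0.056 (SE, adjusted p = 5.5e-05), and its change against control was 0.26 with ARV-825 and -0.21 ± 0.056 (SE, adjusted p = 0.00684) with OTX015, the only gene of the 36 with calls of opposite sign for the 2 drugs, except that IARS2 joined it under median-ratio rescaling. VARS2 had 21.1, 21.9 and 20.1 FPKM with ARV-825 and 17.1, 15.4 and 15.6 FPKM with OTX015, a log2 difference of 0.37 ± 0.056 (SE, adjusted p = 0.000256). FARS2, for phenylalanine, had 8.90, 8.14 and 10.2 FPKM with ARV-825 and 7.55, 7.94 and 6.04 FPKM with OTX015, a log2 difference of 0.30 ± 0.104 (SE, adjusted p = 0.0267); it did not pass without ARV-825 replicate 1 (0.32, adjusted p = 0.0511) or 3 (0.23, adjusted p = 0.0945), or without OTX015 replicate 3 (0.20, adjusted p = 0.0986). IARS2 had 57.1, 55.8 and 57.8 FPKM with ARV-825 and 52.9, 51.8 and 49.8 FPKM with OTX015, a log2 difference of 0.14 ± 0.038 (SE, adjusted p = 0.00828).

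**Figure D4:**
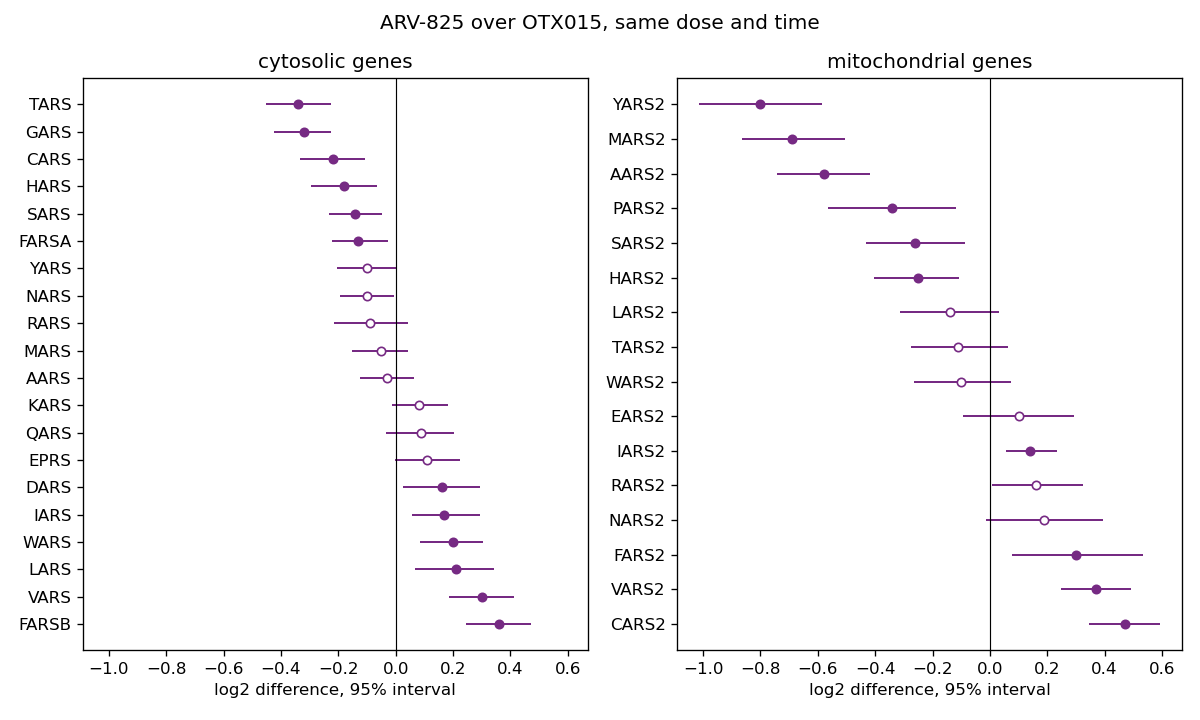
Log2 difference of each synthetase gene, ARV-825 over OTX015, with 95% intervals; filled points passed adjusted p = 0.05 and open points did not. Cytosolic genes lie between -0.34 and 0.36, and mitochondrial genes spread from -0.80 (YARS2) to 0.47 (CARS2).

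In the cytosol TARS had 66.4, 68.8 and 70.7 FPKM with ARV-825 and 88.1, 87.2 and 86.5 FPKM with OTX015, a log2 difference of -0.34 ± 0.051 (SE, adjusted p = 0.000228). GARS, which serves both compartments, had 52.1, 50.04 and 51.2 FPKM with ARV-825 and 64.7, 64.4 and 63.3 FPKM with OTX015, a log2 difference of -0.32 ± 0.043 (SE, adjusted p = 0.000118). CARS had 20.4, 20.1 and 21.4 FPKM with ARV-825 and 24.2, 25.5 and 23.01 FPKM with OTX015, a log2 difference of -0.22 ± 0.051 (SE, adjusted p = 0.00377). All 3 were lower with ARV-825 in every library. HARS had 29.3, 28.1 and 27.8 FPKM with ARV-825 and 34.01, 32.9 and 29.99 FPKM with OTX015, a log2 difference of -0.18 ± 0.051 (SE, adjusted p = 0.0117) and lost its call without OTX015 replicate 1 (-0.14, adjusted p = 0.0539). In the other direction, FARSB had 18.8, 18.6 and 19.4 FPKM with ARV-825 and 14.3, 15.2 and 14.2 FPKM with OTX015, a log2 difference of 0.36 ± 0.05 (SE, adjusted p = 0.000152). VARS had 53.2, 53.98 and 51.5 FPKM with ARV-825 and 42.9, 40.6 and 44.9 FPKM with OTX015, a log2 difference of 0.30 ± 0.051 (SE, adjusted p = 0.000524). In both, every ARV-825 library was the higher. LARS had 81.2, 86.7 and 76.7 FPKM with ARV-825 and 66.3, 69.98 and 75.2 FPKM with OTX015, a log2 difference of 0.21 ± 0.062 (SE, adjusted p = 0.0147) and did not pass without ARV-825 replicate 2 (0.16, adjusted p = 0.0544) or OTX015 replicate 1 (0.16, adjusted p = 0.0639). WARS had 61.5, 60.3 and 65.3 FPKM with ARV-825 and 57.2, 53.2 and 52.5 FPKM with OTX015, a log2 difference of 0.20 ± 0.046 (SE, adjusted p = 0.00415).

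Smaller differences that passed were SARS at -0.14, FARSA at -0.13, DARS at 0.16 and IARS at 0.17, and each lost its call with 1 library or another left out. Without OTX015 replicate 1, the differences were -0.12, adjusted p = 0.054 for SARS, 0.15, adjusted p = 0.0953 for DARS and 0.13, adjusted p = 0.0637 for IARS. DARS also lost its call without ARV-825 replicate 1 (adjusted p = 0.0681) or 3 (adjusted p = 0.12) or OTX015 replicate 3 (adjusted p = 0.0917), and FARSA without ARV-825 replicate 2 (adjusted p = 0.0565) or 3 (adjusted p = 0.058) or OTX015 replicate 2 (adjusted p = 0.0994). Under median-ratio rescaling FARSA had -0.08, adjusted p = 0.124 and SARS -0.09, adjusted p = 0.0545. With all libraries and no rescaling the 2 subunits of the phenylalanine enzyme differed between the drugs in opposite directions, FARSA by -0.13 and FARSB by 0.36. For AARS the drugs differed by -0.03 (95% interval -0.12 to 0.06), for MARS by -0.05 (-0.15 to 0.04) and for QARS by 0.09 (-0.03 to 0.20), none past the test. Other genes passed only under an alternative, RARS as lower with ARV-825 and the rest as higher. With 1 library left out these were EPRS without OTX015 replicate 3 (0.15, adjusted p = 0.031), KARS without ARV-825 replicate 2 (0.12, adjusted p = 0.0293), RARS without ARV-825 replicate 1 (-0.15, adjusted p = 0.0175) and NARS2 without OTX015 replicate 2 (0.28, adjusted p = 0.0187). With median-ratio rescaling they were EPRS (0.16, adjusted p = 0.037), KARS (0.13, adjusted p = 0.0109), QARS (0.14, adjusted p = 0.0335), NARS2 (0.24, adjusted p = 0.0314) and RARS2 (0.21, adjusted p = 0.0179). The 8 complex enzymes had 3 higher and 0 lower with ARV-825, and the 12 enzymes outside it 3 higher and 6 lower; with the rescaling these were 6 higher and 0 lower in the complex and 3 higher and 4 lower outside it. The class I enzymes of both compartments, which share a Rossmann-fold catalytic domain, had 7 of 18 higher and 3 lower with ARV-825 (median 0.10), and the class II enzymes, built on an antiparallel sheet, 3 of 17 higher and 9 lower (median -0.13), against 24.7% of all genes higher and 33.4% lower. EPRS holds an enzyme of each class and is in neither count. Under median-ratio rescaling QARS and RARS2 of class I and KARS and NARS2 of class II passed as higher. FARSA and SARS of class II then did not pass, so the split by class also moved with the scaling.

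RUNX1 shRNA was followed by fewer calls, most of them rises, in separately normalized libraries taken at 72 h. Of the 20 cytosolic genes 7 rose, 1 fell and 12 did not pass (median 0.08), against 27.4% of 10925 genes called, 13.5% as rises and 13.8% as falls (median -0.01). Of the 16 mitochondrial genes 1 rose, 0 fell and 15 did not pass (median -0.03). The groups did not overlap for 6 cytosolic and 3 mitochondrial genes higher and 3 and 1 lower, against 21.5% and 22.6% of all genes. The cytosolic genes that rose charge alanine, glycine, tyrosine, threonine, glutamate and proline, isoleucine and leucine.

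AARS had 49.3, 49.8 and 48.02 FPKM with RUNX1 shRNA, against 38.8, 38.05 and 39.2 FPKM with non-targeting shRNA, a log2 change of 0.33 ± 0.031 (SE, adjusted p = 0.000167). GARS had 76.2, 78.1 and 75.4 FPKM with RUNX1 shRNA, against 63.8, 63.1 and 61.8 FPKM with non-targeting shRNA, a log2 change of 0.28 ± 0.028 (SE, adjusted p = 0.000269). YARS had 104, 102 and 96.95 FPKM with RUNX1 shRNA, against 85.5, 85.6 and 83.6 FPKM with non-targeting shRNA, a log2 change of 0.25 ± 0.032 (SE, adjusted p = 0.000933). TARS had 97.9, 95.5 and 93.9 FPKM with RUNX1 shRNA, against 83.4, 81.5 and 80.2 FPKM with non-targeting shRNA, a log2 change of 0.23 ± 0.028 (SE, adjusted p = 0.000807). In all 4 the groups stood apart. EPRS rose by 0.22 (adjusted p = 0.00896) and IARS by 0.20 (adjusted p = 0.00449). LARS passed by a narrow margin, at 124, 125 and 118 FPKM with RUNX1 shRNA, against 119, 110.2 and 107 FPKM with non-targeting shRNA, a log2 change of 0.13 ± 0.042 (SE, adjusted p = 0.0498); its groups overlapped, and it did not pass without non-targeting shRNA replicate 2 (0.12, adjusted p = 0.139) or 3 (0.10, adjusted p = 0.158), or without RUNX1 shRNA replicate 1 (0.12, adjusted p = 0.117) or 2 (0.11, adjusted p = 0.126), or under median-ratio rescaling (0.14, adjusted p = 0.0525). FARSA was the 1 gene that fell, at 118, 120 and 119 FPKM with RUNX1 shRNA, against 144, 148 and 144 FPKM with non-targeting shRNA, a log2 change of -0.29 ± 0.024 (SE, adjusted p = 0.000102), without overlap. FARSB, its partner, had 0.02 (95% interval -0.06 to 0.10).

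**Figure D5:**
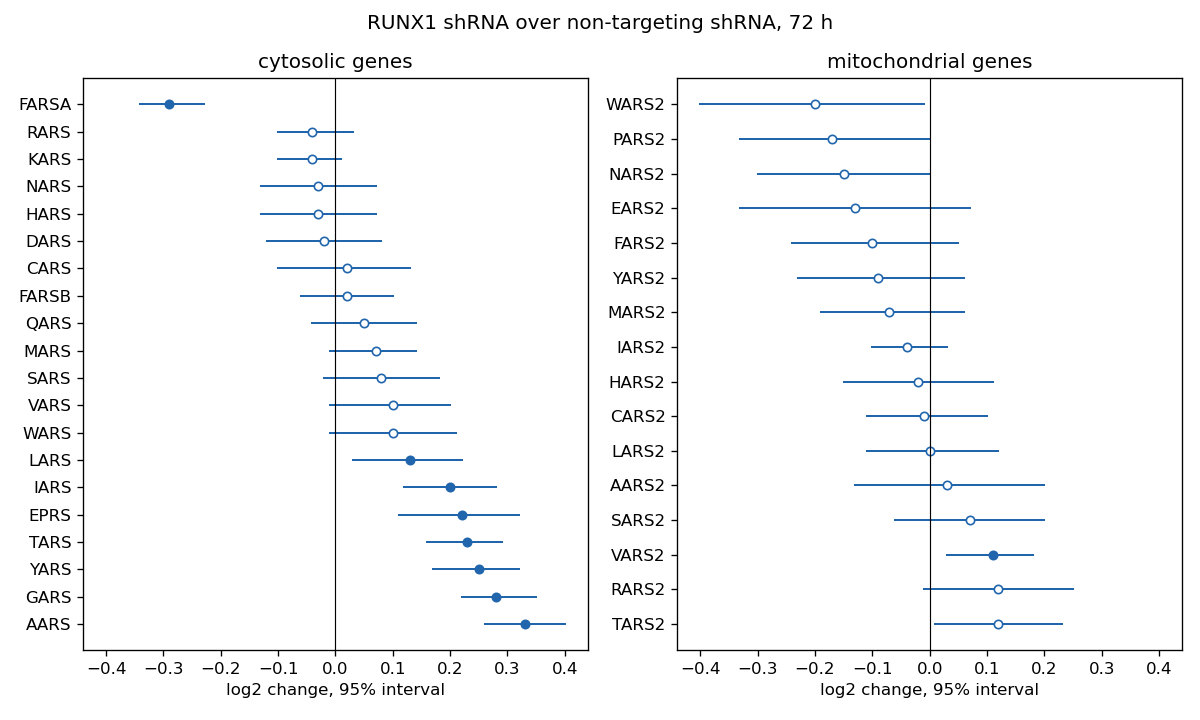
Log2 change of each synthetase gene, RUNX1 shRNA over non-targeting shRNA at 72 h, with 95% intervals; filled points passed adjusted p = 0.05 and open points did not. AARS, GARS, YARS, TARS, EPRS, IARS and LARS lie right of 0, FARSA at -0.29 lies left of it, and mitochondrial genes lie between -0.20 and 0.12.

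All 7 rises were among the 12 cytosolic genes listed as raised by ATF4 in other cells (AARS, CARS, EPRS, GARS, IARS, LARS, MARS, NARS, SARS, TARS, WARS and YARS), 58.3% of that list against 13.5% of all genes, with a median of 0.16; CARS, MARS, NARS, SARS and WARS had 0.02, 0.07, -0.03, 0.08 and 0.10 and did not pass. Of the 8 cytosolic genes not on that list 0 rose and 1 fell (median -0.03). The list was drawn up with earlier results of these data known. With ARV-825 the same 12 genes had 10 falls and 0 rises (median -0.51) and the 8 others 5 falls and 1 rise (median -0.14), and with OTX015 11 falls and 0 rises (median -0.44) and 5 falls and 1 rise (median -0.33); over all genes 38.4% fell with ARV-825 and 33.5% with OTX015. Of the 6 genes with the C/EBP-ATF core printed above, 3 (AARS, IARS and TARS) rose with RUNX1 shRNA, as did 2 (EPRS and GARS) of the 10 cytosolic genes whose windows lack it, against 13.5% of all genes. All 6 fell with ARV-825 and with OTX015, as did 5 and 6 of those 10. The difference between these small sets was not tested.

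Among mitochondrial genes VARS2 had 30.04, 29.6 and 30.4 FPKM with RUNX1 shRNA, against 27.8, 27.5 and 28.2 FPKM with non-targeting shRNA, with a log2 change of 0.11 ± 0.033 (SE, adjusted p = 0.0439). It did not pass when any 1 of the 6 libraries was left out, with adjusted p = 0.0527 (without RUNX1 shRNA replicate 2) to 0.137 (without non-targeting shRNA replicate 2). YARS2, MARS2 and AARS2, the mitochondrial genes that fell most with ARV-825, had -0.09 (95% interval -0.23 to 0.06), -0.07 (-0.19 to 0.06) and 0.03 (-0.13 to 0.20) with RUNX1 shRNA. WARS2 had -0.20 (adjusted p = 0.111) and passed without RUNX1 shRNA replicate 3 (-0.27, adjusted p = 0.0489). EARS2 passed as a fall without non-targeting shRNA replicate 1 (-0.24, adjusted p = 0.038), against -0.13 (adjusted p = 0.293) with all 6 libraries. TARS2 passed as a rise without non-targeting shRNA replicate 3 (0.16, adjusted p = 0.0419), and the cytosolic WARS without RUNX1 shRNA replicate 2 (0.15, adjusted p = 0.041). MYC itself had -0.31 (adjusted p = 8.12e-05).

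Genes that work beside the synthetases were read from lists of 14 charging partners and 9 elongation factors. Over all genes 38.4% fell and 35.8% rose with ARV-825, 33.5% fell and 36.1% rose with OTX015, and 13.8% fell and 13.5% rose with RUNX1 shRNA. Of the partners 9 fell and 2 rose with ARV-825 (median -0.28), 10 fell and 1 rose with OTX015 (median -0.42), and 3 fell and 0 rose with RUNX1 shRNA (median -0.07), so that 64.3%, 71.4% and 21.4% fell. XPOT, the exporter of tRNA from the nucleus, had 24.1, 24.6 and 25.5 FPKM with ARV-825, 28.3, 27.5 and 28.3 FPKM with OTX015 and 56.1, 58.7 and 51.7 FPKM in control, log2 changes of -1.13 ± 0.051 (SE, adjusted p = 1.22e-08) and -0.96 ± 0.051 (SE, adjusted p = 5.66e-08). QRSL1, a subunit of the amidotransferase that converts mitochondrial glutamyl-tRNA to glutaminyl-tRNA, fell by 1.19 with ARV-825, 0.64 with OTX015 and 0.18 with RUNX1 shRNA; its fellow subunit GATB had -0.08, not past the test, with ARV-825 and fell by 0.42 with OTX015. TRNT1, which adds the CCA end to tRNA, fell by 0.74 and 0.42 with ARV-825 and OTX015. SEPSECS, which makes selenocysteinyl-tRNA from a phosphoseryl intermediate, rose by 0.84 and 0.85, while PSTK, which makes that intermediate, fell by 0.58 with ARV-825 and had -0.04, not past the test, with OTX015. The elongation factors, which carry charged tRNA to the ribosome and move it along, had 3 rises and 2 falls of 9 with ARV-825 (median 0.12), 2 and 2 with OTX015 (median -0.03), and 2 rises and 0 falls with RUNX1 shRNA (median 0.01); the share that rose, 33.3% with ARV-825, lay near that of all genes, and it was 22.2% with OTX015 and with RUNX1 shRNA. EEF2 rose in all 3 comparisons, by 0.20 with ARV-825, 0.33 with OTX015 and 0.16 with RUNX1 shRNA. GFM1, the mitochondrial counterpart of EEF2, fell by 0.24 and 0.34 with the 2 drugs. Among the ARV-825 libraries, all the elongation factors but TUFM, GFM1 and GFM2 were highest in replicate 1. EEF1A1 had 11540.9, 6179.7 and 7358 FPKM with ARV-825, against 7358 FPKM in each control library. What raised these factors in replicate 1 was not tested.

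ATF4, the regulator of many of these genes, had 174, 171 and 167 FPKM with ARV-825, 217, 202 and 196 FPKM with OTX015 and 249, 278 and 258 FPKM in control, log2 changes of -0.61 ± 0.053 (SE, adjusted p = 1.55e-06) and -0.35 ± 0.053 (SE, adjusted p = 0.000149). It had 295, 297 and 289.8 FPKM with RUNX1 shRNA, against 248, 253 and 246 FPKM with non-targeting shRNA, a change of 0.24 ± 0.023 (SE, adjusted p = 0.000238). ATF4 is controlled largely at translation, which these RNA values do not show. Of 31 genes of the amino acid and ATF4 response other than synthetases, ATF4 included, 29 were tested in the drug libraries: 19 fell and 4 rose with ARV-825 (median -0.61), and 19 fell and 8 rose with OTX015 (median -0.35). Of those tested 65.5% fell with each drug, against 38.4% and 33.5% of all genes. SLC7A5 and SLC3A2, the 2 chains of a leucine transporter, had log2 changes of -1.5 and -0.92 with ARV-825 and -1.81 and -1.11 with OTX015, all falls, and the cationic amino acid transporter SLC7A1 fell by 1.99 and 1.51. CHAC1 and TRIB3, 2 genes widely used as ATF4 readouts, also fell, with -2.64 and -2.49 with ARV-825 and -2.19 and -1.37 with OTX015. ASNS, the asparagine synthetase of metabolism and also an ATF4 readout, had -0.15 and -0.19 with ARV-825 and OTX015 and did not pass. Other members of the list rose. The transcription factors ATF3 and ATF5 had 0.76 and 0.88 with ARV-825 and 1.08 and 0.40 with OTX015, and SESN2, an inhibitor of mTORC1 signalling, and CTH, which makes cysteine from cystathionine, had 1.14 and 0.47 with ARV-825 and 0.52 and 0.48 with OTX015, all rises. With OTX015 DDIT3 (CHOP), DDIT4, PSPH and SLC38A2 also rose, by 0.77, 1.62, 0.39 and 0.18. With RUNX1 shRNA 28 of the 31 were tested, of which 9 rose and 3 fell (median 0.14), 32.1% and 10.7%, against 13.5% and 13.8% of all genes. ASNS had 25.9, 25.1 and 26.2 FPKM with RUNX1 shRNA, against 14.8, 15.2 and 16.1 FPKM with non-targeting shRNA, a log2 change of 0.71 ± 0.043 (SE, adjusted p = 2.01e-05). PHGDH and MTHFD2, of serine and folate metabolism, rose by 0.42 and 0.40, SLC3A2 by 0.27 and SLC7A5 by 0.17, whereas PSAT1, the serine synthesis enzyme after PHGDH, fell by 0.16, SLC1A5 by 0.22 and ATF3 by 0.44. Of 12 kinases and regulators of the initiation factor eIF2, EIF2AK4 (GCN2) fell by 0.34 with ARV-825, 0.35 with OTX015 and 0.25 with RUNX1 shRNA, and 4 rose and 6 fell with each drug, against 3 that rose and 2 that fell with RUNX1 shRNA. The shares were 33.3% and 50% with each drug, the rises near those of all genes (35.8% and 36.1%), and 25% and 16.7% with RUNX1 shRNA, against 13.5% and 13.8% of all genes. PPP1R15A (GADD34), which restores translation by promoting dephosphorylation of eIF2, rose by 1.19, 1.60 and 0.26 in the 3 comparisons.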

How the data were processed

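RNA-seq of OCI-AML5 cells was deposited as 1 table of 9 drug libraries and 1 of 6 shRNA libraries. The authors deposited FPKM values, read as quantile normalized within each table; the file headers name no unit, so the unit was inferred from the values and from the listing of Cufflinks 2.0, with TopHat2 2.0 and hg19, per the submitters' processing notes. The annotation and strand are not given in the sources used here. Depth per library is unknown, so counting error cannot be given. Groups follow the treatment labels.

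Pseudoautosomal Y copies were left out. Genes averaging 1 FPKM or more over a table were tested on log2(FPKM + 1), a pseudocount that understates changes of low genes, with limma 3.58.1 (lmFit, eBayes with trend) in R 4.3.3, each table by itself, tested on simulated data beforehand. No 2 libraries shared more than 60 exactly equal values (tolerance 0) among tested genes. The synthetase genes and all lists were chosen with earlier results of these data known. Given in full are, per comparison, up to 4 called genes with the largest change in each direction in each set, and genes called in opposite directions by the 2 drugs. Alternatives were 13 per comparison. Promoter sequences are RefSeq's on GRCh38.p14, another build than hg19.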

Additional observations from a re-analysis of the deposited data

How the results depend on the processing

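Over 13 alternatives per comparison (pseudocount 0.1, no filter on low values, a mean of at least 5 FPKM, median-ratio rescaling, eBayes without a trend, a replicate block, the 2 groups alone for the drugs or robust eBayes for the shRNAs, and each of 6 libraries left out), 0 of the 36 genes reversed the sign of a called change. Calls changed under at least 1 alternative for 7 genes with ARV-825 against control, 4 with OTX015 against control, 14 between the drugs and 7 with RUNX1 shRNA. The 15 cytosolic falls with ARV-825 were 14 to 16, and the 16 with OTX015 stayed at 16, over all alternatives. The 10 mitochondrial falls with ARV-825 were 7 to 10 and the 11 with OTX015 9 to 11. The low ends, 7 and 9, came with the filter of at least 5 FPKM. It left 33 of the 36 genes tested, and 0 of those changed call.

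The single cytosolic rise with OTX015 (QARS) became 0 with no filter on low values and 0 with eBayes without a trend, and 0 to 2 rises were called with 1 library left out. The single mitochondrial rise with OTX015 became 1 to 2 with 1 library left out. The 6 cytosolic genes higher with ARV-825 than OTX015 became 3 to 6 with 1 library left out, with 3 without OTX015 replicate 1. Under median-ratio rescaling they became 9, and the 6 lower became 4; the 4 mitochondrial genes higher became 6. The single mitochondrial rise with RUNX1 shRNA (VARS2) became 0 with eBayes without a trend and 0 with robust eBayes. VARS2 lost its call in all 6 fits with 1 library left out, in which 0 to 1 mitochondrial genes rose, the 1 being TARS2 without non-targeting shRNA replicate 3. The count of 0 mitochondrial falls became 1 with eBayes without a trend and 0 to 1 with 1 library left out. At an unadjusted p under 0.05 in limma, 3 mitochondrial genes (NARS2, PARS2 and WARS2) were lower with RUNX1 shRNA. The cause of these moves was not tested.

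No pairing of libraries by replicate number was seen. Between same-numbered libraries, deviations from group means correlated, over genes, at -0.321 to 0.0613 (drugs, 9 pairs) and -0.00304 to 0.0612 (shRNAs, 3 pairs). Between libraries of different numbers they ran from -0.224 to 0.409 for the drugs (18 pairs) and -0.0704 to 0.0222 for the shRNAs (6 pairs). The highest, 0.409, joined ARV-825 replicate 2 and OTX015 replicate 3, and its cause was not tested. Deviations within a group of 3 sum to 0, so these correlations cannot exclude a shared day or batch. With the replicate number as a block, 7771, 7262, 5884 and 2585 genes were called for ARV-825 against control, OTX015 against control, ARV-825 against OTX015 and RUNX1 shRNA against non-targeting shRNA, and the mitochondrial rise with RUNX1 shRNA became 0. Depth is unknown, so what it limits cannot be stated.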

Other observations

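Among the amino acid response genes, several differed between the 2 drugs at 1000 nM and 4 h by limma, a comparison not given for them above. SLC38A2, an importer of small neutral amino acids, had 30.6, 29.8 and 26.01 FPKM with ARV-825, 75.9, 70.8 and 78.95 FPKM with OTX015 and 61.2, 70.4 and 67.3 FPKM in control, with a log2 difference of -1.36 ± 0.071 (SE, adjusted p = 7.38e-07) between ARV-825 and OTX015. DDIT4 (REDD1), an inhibitor of mTORC1 signalling, had 13.1, 11.8 and 25.6 FPKM with ARV-825, 45.6, 105 and 42.5 FPKM with OTX015 and 17.9, 21.1 and 16.9 FPKM in control, with a difference of -1.83 ± 0.333 (SE, adjusted p = 0.000866). CEBPB, a transcription factor of myeloid cells and stress responses, had 17.4, 12.6 and 18.9 FPKM with ARV-825, 34.2, 38.5 and 32.3 FPKM with OTX015 and 28.2, 36 and 37.8 FPKM in control, with a difference of -1.07 ± 0.142 (SE, adjusted p = 0.000108). In all 3 genes every ARV-825 library lay below every OTX015 library. PYCR1, of proline synthesis, was higher with ARV-825 than with OTX015, at 13.4, 15.7 and 15.9 FPKM with ARV-825 and 8.30, 8.97 and 7.95 FPKM with OTX015, a difference of 0.76 ± 0.085 (SE, adjusted p = 3.64e-05). Against control it fell with both, by log2 changes of -0.43 ± 0.085 (SE, adjusted p = 0.000888) and -1.19 ± 0.085 (SE, adjusted p = 5.12e-07).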
